A study of Mus musculus with 16 samples.

Results

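Malat1 and Neat1, the abundant long noncoding RNAs of the cell nucleus, were followed in neutrophils sorted from 3 tissues of germ-free and colonised mice. They are 2 of the 10296 genes listed for each library, and they were picked by symbol with their levels in these libraries already known. Their own levels and differences are therefore given as a description, without a test.

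The cells were Ly6G+ neutrophils of C57BL/6 mice, short-lived phagocytes sorted by flow cytometry on CD45, CD11b and Ly6G. Lung neutrophils came from germ-free (GF) mice, which live without microorganisms, in 3 libraries, and from SPF mice, which carry a microbiota free of specified pathogens, in 3 libraries. Spleen neutrophils came from GF mice in 3 libraries and SPF mice in 3, and blood neutrophils from GF mice in 2 libraries and SPF mice in 2. The labels name no engineered allele and no treatment for any group, and they give no age. They also leave unsaid whether replicate libraries represent different mice, so the spread behind the p-values below may be technical.

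Malat1 RNA gathers in nuclear speckles, bodies rich in splicing factors, and is one of the most abundant nuclear transcripts in many mammalian cell types. Neat1 is made as a short polyadenylated RNA and as a long RNA from the same start, and the long RNA is the scaffold of paraspeckles, nuclear bodies that hold back proteins and some RNAs. The 3′ ends of Malat1 and of long Neat1 are not polyadenylated: RNase P cuts each transcript in front of a tRNA-like fold, and a pair of U-rich motifs with a genomically encoded A-rich tract then forms a triple helix that protects the new end.

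The genes lie side by side on the minus strand of chromosome 19 (GENCODE M21 on GRCm38). Malat1 (ENSMUSG00000092341) covers chr19:5795690-5802672 and Neat1 (ENSMUSG00000092274) covers chr19:5824708-5845478, with 22035 bases between them. Both are annotated as lincRNA genes with 4 transcripts each. Malat1-201 is a single exon of 6983 bases, long Neat1-201 a single exon of 20771 bases, and short Neat1-202 has 2 exons and a spliced length of 3004 bases. The deposited rows are per gene, so the short and long forms of Neat1 were not separated.

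The sequences of the 2 non-polyadenylated ends are shown because this arrangement sets Malat1 and Neat1 apart from ordinary messenger RNAs, which end in a poly(A) tail. Each is read 5′ to 3′ on the transcript strand, with the U-rich motifs (TTTCTTTT or TTTTGCTTTT) and the A-rich tract (AAAAAGCAAAA) in capitals.
Malat1-201 bases 6598 to 6691, chr19:5795982-5796075, minus strand: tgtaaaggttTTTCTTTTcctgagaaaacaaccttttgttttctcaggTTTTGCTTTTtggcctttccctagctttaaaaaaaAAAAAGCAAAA
Neat1-201 bases 20672 to 20771, chr19:5824708-5824807, minus strand: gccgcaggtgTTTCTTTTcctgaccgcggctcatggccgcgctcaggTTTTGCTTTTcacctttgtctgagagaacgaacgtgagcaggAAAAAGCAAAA

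Both ends hold the same pair of U-rich motifs in the same order, followed by the same A-rich tract of 11 letters. On the transcript strand, 2 U-rich motifs within 120 bases before the A-rich tract were found in 5 of 55341 genes in the annotation (141767 transcripts searched), which were Ahdc1, Malat1, Ncapg2, Neat1 and Sox4. A match of letters is a description of the sequence and not a sign of a triple helix. The bases that follow are shown next, since they are the part that RNase P is known to separate from the long RNA.
Malat1-201 bases 6692 to 6751, chr19:5795922-5795981, minus strand: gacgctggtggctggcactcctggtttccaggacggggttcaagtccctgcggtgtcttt
Gm27702-201, chr19:5824652-5824707, minus strand: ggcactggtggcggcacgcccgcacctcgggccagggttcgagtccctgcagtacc

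Annotated Neat1-201 ends at the last base of its A-rich tract, and the annotation places a separate small RNA of 56 bases, Gm27702-201, directly after it. Annotated Malat1-201 runs on for 292 bases past its tract. Short Neat1 ends in another way, at a polyadenylation signal (AATAAA, in capitals), and its last bases are shown for contrast with the long form.
Neat1-202 last 60 bases, chr19:5842307-5842366, minus strand: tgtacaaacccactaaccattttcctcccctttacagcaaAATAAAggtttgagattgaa

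Levels are the deposited normalised signal, a linear value in which 1 read was worth 0.392 to 7.62 units depending on the depth of the library. Recovered depth was 504208 to 1147991 reads in lung libraries, 104213 to 640596 in spleen libraries and 132798 to 3033941 in blood libraries. A sum of 12 neutrophil markers was 31297 to 40123 in GF lung and 32523 to 53292 in SPF lung, against 47780 to 109325 in GF spleen, 49178 to 78904 in SPF spleen, 53179 to 69794 in GF blood and 78686 to 94187 in SPF blood. Ly6g, the marker of the sort, averaged 35.8 ± 12.9 in GF lung, 46.1 ± 5.08 in SPF lung, 209 ± 180 in GF spleen and 144 ± 29.6 in SPF spleen (SD, n = 3 each), and 65.4 ± 45.4 in GF blood and 160 ± 14.8 in SPF blood (SD, n = 2 each). A sum of 17 lung structural cell markers, such as the surfactant gene Sftpc, was 5333 to 12288 in GF lung, 3315 to 6654 in SPF lung and at most 81.2 in any spleen or blood library; between 9 and 10 of the 17 had 0 reads throughout a spleen group, and 3 to 4 throughout a blood group. A sum of 12 erythroid and platelet markers was 82626 to 100148 in GF blood, 44653 to 70939 in SPF blood and at most 22129 elsewhere. In such bulk samples a change in the share of a cell type and a change in RNA per cell cannot be told apart.

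Malat1 was high in every library, and SPF blood stood far above all others. Its signal was 2065, 3063 and 3070 in GF lung, and 2639, 2550 and 2589 in SPF lung. In spleen the values were 2936, 2479 and 2235 for GF mice, and 1515, 2227 and 2637 for SPF mice. GF blood had 1813 and 1245, against 8730 and 6360 in SPF blood. The 14 libraries outside SPF blood thus spanned 1245 to 3070, and both SPF blood libraries lay above that range. These values rest on 168 to 19328 reads per library; the shallowest, GF blood replicate 3, has a 95% Poisson interval of 144 to 195 reads that covers counting error only.

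**Figure D1:**
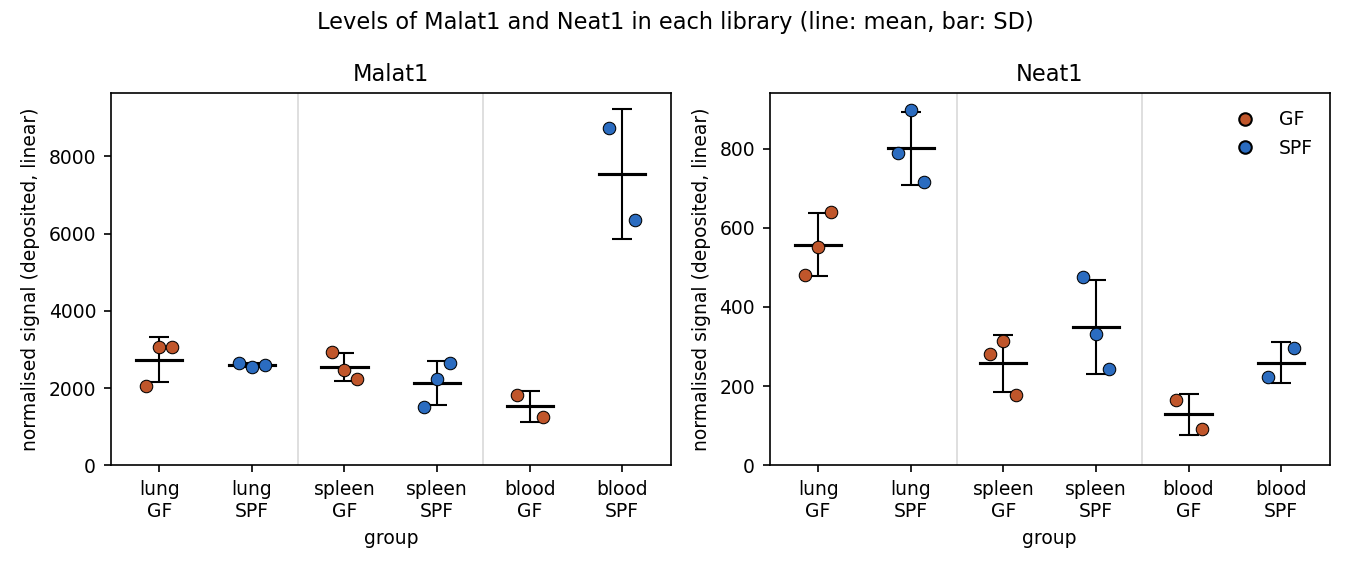
Deposited normalised signal (linear axis) of Malat1 (left) and Neat1 (right) in each library of the 6 groups; points are libraries (GF orange, SPF blue), lines are means and bars are SD. Malat1 is highest in SPF blood at 6360 and 8730, whereas Neat1 is highest in SPF lung at 715 to 898.

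Group means of Malat1 were 2733 ± 578 in GF lung, 2593 ± 44.4 in SPF lung, 2550 ± 356 in GF spleen and 2126 ± 567 in SPF spleen (SD, n = 3 each). GF blood averaged 1529 ± 402 and SPF blood 7545 ± 1676 (SD, n = 2 each). As a share of all reads, averaged over libraries, Malat1 took 0.279% in GF lung, 0.261% in SPF lung, 0.271% in GF spleen, 0.233% in SPF spleen, 0.139% in GF blood and 0.604% in SPF blood. Ordered from low to high, the groups ran GF blood, SPF spleen, GF spleen, SPF lung, GF lung and SPF blood. Only the last step, SPF blood over GF lung at 2.76-fold, separated neighbours without overlap. Each other pair of neighbours in that order shared part of its range. Groups of 2 or 3 libraries can separate by chance, so a lack of overlap is only a description here and below. The share of all genes without overlap was not counted.

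Neat1 followed another order and was highest in the lung. It stood at 481, 551 and 640 in GF lung, and at 788, 898 and 715 in SPF lung. Spleen libraries had 281, 315 and 177 for GF mice, and 476, 331 and 242 for SPF mice. Blood libraries had 165 and 92.6 for GF mice, and 222 and 297 for SPF mice. All 6 lung libraries were above all 10 libraries of spleen and blood, with the closest pair at 481 in a GF lung library and 476 in an SPF spleen library. The number of reads behind these values was 398 to 770 in lung, 29 to 222 in spleen and 12 to 756 in blood; the 12 reads, with a 95% Poisson interval of 6.2 to 21, belong to GF blood replicate 3.

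Neat1 averaged 557 ± 79.7 in GF lung, 800 ± 92.2 in SPF lung, 258 ± 71.8 in GF spleen and 350 ± 118 in SPF spleen (SD, n = 3 each). GF blood averaged 129 ± 51.4 and SPF blood 260 ± 52.4 (SD, n = 2 each). From low to high the order was GF blood, GF spleen, SPF blood, SPF spleen, GF lung and SPF lung. GF spleen over GF blood (2.0-fold), GF lung over SPF spleen (1.59-fold) and SPF lung over GF lung (1.44-fold) were the steps without overlap. GF spleen, SPF blood and SPF spleen overlapped with their neighbours among them.

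Within groups, Malat1 varied with a pooled SD of 0.297 and Neat1 with one of 0.378 on the log2 scale. The median over the 8299 genes tested was 0.585, and 0.290 over the 1434 genes with a mean of at least 100.

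The difference between GF and SPF mice was largest in blood. On the log2(value + 1) scale, GF minus SPF was -2.31 for Malat1 and -1.05 for Neat1 in blood, where neither gene's groups overlapped. With so few libraries per group such separation arises easily by chance, and its share over all genes was not counted. The called shares below are a different measure. The Neat1 difference was -0.63 without GF blood replicate 3, the library with 12 Neat1 reads. At similar depth, GF blood replicate 2, with 2555255 reads, had a Malat1 signal of 1813, against 8730 and 6360 in the SPF libraries of 2870559 and 3033941 reads. Among all genes tested in this comparison, 0.795% were called higher and 0.53% lower in GF blood, where called means an adjusted p under 0.05 in limma. The erythroid and platelet sum was also higher in GF blood than in SPF blood, and the sum of neutrophil markers was 53179 and 69794 in GF blood against 78686 and 94187 in SPF blood. Neutrophil markers did not all move alike: mean S100a9 was lower in GF blood, whereas mean Csf3r was higher. For this list limma called 0 of 12, with 5 at an unadjusted p under 0.05, against 1367 of all 8299 genes at such a p. The list median was -0.13 against 0.02 over all genes. For erythroid and platelet markers limma also called 0 of 12. The part of these cell types in the difference was not tested.

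In lung, Malat1 differed by 0.05 between GF and SPF mice with overlapping groups. Neat1 differed by -0.52, and every GF lung library lay below every SPF lung library. In this comparison 0.012% of genes were called higher and 0.012% lower, which is 1 gene each. The lung structural marker sum stood the other way round, at 9825 ± 3897 in GF lung and 4897 ± 1677 in SPF lung (SD, n = 3 each). In spleen the groups overlapped for both RNAs, with differences of 0.29 for Malat1 and -0.43 for Neat1. The background there was 0.253% called higher and 0.0723% called lower in GF spleen. Neat1 means were thus lower in GF than in SPF mice in each of the 3 tissues, though without overlap only in lung and blood.

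Between tissues, the RNAs behaved differently. Lung minus spleen was 0.09 for Malat1 and 1.14 for Neat1 in GF mice, and 0.32 for Malat1 and 1.24 for Neat1 in SPF mice. Malat1 overlapped between lung and spleen in both kinds of mice, whereas Neat1 did not overlap in either. Lung neutrophils had 2.16-fold the Neat1 signal of spleen neutrophils in GF mice and 2.29-fold in SPF mice. Of all genes tested, 8.03% were called higher and 2.14% lower in GF lung than in GF spleen. For SPF lung against SPF spleen the shares were 7.68% higher and 1.99% lower. Markers of several cell types moved with these lung differences. Of 12 neutrophil markers, 8 were called lower in GF lung than in GF spleen and 7 in SPF lung than in SPF spleen, with none higher. The size of the difference was very unequal among these markers. Ngp, a granule gene, had 284 ± 223 in GF lung against 10100 ± 5680 in GF spleen (SD, n = 3 each). Csf3r had 7485 ± 841 in GF lung against 8266 ± 1257 in GF spleen (SD, n = 3 each). The count is thus no measure of the share of neutrophils. Of 17 lung structural markers 16 and 15 were called higher in GF and SPF lung, and of 12 B cell markers 2 and 4. The B cell marker sum was 1097 to 1226 in GF lung and 1019 to 1466 in SPF lung, against 675 to 780 in GF spleen and 771 to 1010 in SPF spleen. Of 10 macrophage and monocyte markers 1 was called lower in lung in each kind of mice. The sum of these markers was 1380 to 1761 in GF lung against 3556 to 5173 in GF spleen. In SPF mice it was 1297 to 1375 in lung against 2500 to 3212 in spleen. The part of these cell types in the Neat1 level and in the other lung differences below was not tested.

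Against blood, Malat1 had opposite signs in the 2 kinds of mice. Lung minus blood was 0.84 in GF mice and -1.52 in SPF mice, without overlap in either. Spleen minus blood was 0.75 in GF mice and -1.85 in SPF mice, again without overlap. Quantile normalization gave -0.91 for the lung and -1.03 for the spleen difference in SPF mice. The spleen difference in GF mice was 0.45 when libraries under 250000 reads were left out. The comparisons of lung and of spleen share their blood libraries, so they are not separate observations of the high Malat1 in SPF blood.

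Neat1 was higher in lung than in blood in both kinds of mice, by 2.15 in GF mice and 1.63 in SPF mice, without overlap. Spleen minus blood was 1.01 for Neat1 in GF mice without overlap, and 0.60 when GF blood replicate 3 was left out. In SPF mice it was 0.39 with overlapping groups. For GF lung against GF blood, 7.83% of genes were called higher and 1.96% lower. For SPF lung against SPF blood the shares were 12.5% and 6.63%. Spleen differed less from blood, with 0.47% higher and 0.41% lower in GF mice and 3.05% higher and 4.01% lower in SPF mice. Cell type markers moved in the comparisons with blood as well. Of 12 neutrophil markers, 2 were called lower in GF lung than in GF blood, and 6 lower and 1 higher in SPF lung than in SPF blood. Of 12 B cell markers, 5 and 10 were higher in GF and SPF lung than in blood, and 3 and 4 were higher in GF and SPF spleen than in blood. Of 10 macrophage and monocyte markers, 6 were higher and 2 lower in SPF spleen than in SPF blood. Their sums were 2500 to 3212 in SPF spleen against 1519 to 1524 in SPF blood. In GF spleen 2 of the 10 were higher than in GF blood, with sums of 3556 to 5173 against 1407 to 2003. GF lung had 1 higher and 1 lower than GF blood, and SPF lung 3 higher and 2 lower than SPF blood. Erythroid and platelet markers were called lower than in blood in each case, 10 of 12 in GF lung, 6 in SPF lung, 7 in GF spleen and 11 in SPF spleen. The part of these cell types in the levels of Malat1 and Neat1 was not tested.

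The balance of the 2 RNAs within a library removes the scaling between libraries. Malat1 over Neat1 signal was 4.29, 5.56 and 4.80 in GF lung, and 3.35, 2.84 and 3.62 in SPF lung. GF spleen had ratios of 10.4, 7.87 and 12.6, and SPF spleen had 3.18, 6.72 and 10.9. The ratio was 11 and 13.4 in GF blood, against 39.2 and 21.4 in SPF blood. SPF blood thus stood above all other libraries, and GF lung stood above SPF lung without overlap. On the log2 scale GF minus SPF of this ratio was 0.58 in lung, 0.72 in spleen and -1.26 in blood, so the sign in blood was opposite to that in the other tissues.

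**Figure D2:**
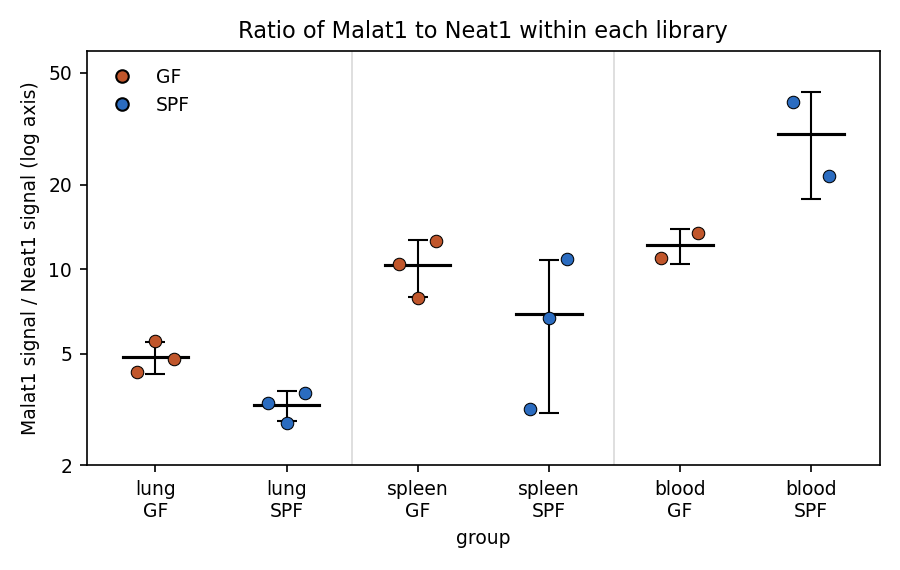
Ratio of Malat1 to Neat1 signal in each library (log axis), by group; points are libraries (GF orange, SPF blue), lines are means and bars are SD. Ratios run between 2.84 in an SPF lung library and 39.2 in an SPF blood library, and SPF spleen is the widest group on this axis.

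Per kilobase, Malat1 signal was 178 to 1250 over the 16 libraries, computed on Malat1-201. Neat1 signal per kilobase was 4.46 to 43.2 if all of it came from the long form and 30.8 to 299 if all came from the short form. Malat1 exceeded Neat1 per length in each of the 16 libraries under either assumption, by 8.45-fold to 117-fold with the long form and by 1.22-fold to 16.9-fold with the short form. The true value depends on the mix of forms, which gene-level values do not give. It also depends on how evenly RNAs with and without a poly(A) tail were captured, which was not measured.

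Another row of the table shares sequence with Malat1. Gm37376, a predicted gene on the plus strand (chr19:5801941-5802393), lies wholly inside the 5′ part of Malat1 on the opposite strand. No strand-aware counting is stated, so reads of Gm37376 and Malat1 cannot be told apart, and this row was singled out after its values were seen. Gm37376 had 321 and 200 in GF blood, against 1462 and 1082 in SPF blood. Its group means were 492 ± 88.4 in GF lung, 638 ± 169 in SPF lung, 441 ± 35.3 in GF spleen and 298 ± 95.9 in SPF spleen (SD, n = 3 each). Like Malat1 it was highest in SPF blood, in both libraries.

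Genes of proteins that build paraspeckles around long Neat1 were examined next. Of 32 such genes 30 could be tested, and 4 of them passed in 1 comparison each, all higher in the first-named tissue. This is 1 of 30 in each such comparison, against shares of all genes called higher of 8.03% for GF lung over GF spleen, 7.68% for SPF lung over SPF spleen, 12.5% for SPF lung over SPF blood and 3.05% for SPF spleen over SPF blood. They were Cirbp, a cold-inducible RNA-binding protein, in GF lung over GF spleen (1.66 ± 0.49 log2, SE, adjusted p = 0.0271), and the RNA-binding protein gene Rbm12 in SPF lung over SPF spleen (1.72 ± 0.53, adjusted p = 0.0363). Rbm7, which belongs to a nuclear RNA decay complex, was higher in SPF lung than in SPF blood (1.04 ± 0.37, adjusted p = 0.0465), and the splicing regulator Hnrnpf in SPF spleen over SPF blood (0.73 ± 0.22, adjusted p = 0.0399). Each of these 4 calls was lost without any one of at least 3 libraries. In the other 5 comparisons limma called 0 of the 30. These were GF lung and GF spleen against GF blood, and GF against SPF mice in lung, spleen and blood. In that order, 9.8%, 0.88%, 0.0241%, 0.325% and 1.33% of all genes were called in either direction. An unadjusted p under 0.05 was reached by 1, 5, 1, 3 and 4, against 1817, 1001, 332, 1032 and 1367 of all 8299 genes. List medians lay between 0.01 and 0.37 on the log2 scale, against 0.01 to 0.16 over all genes.

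The core paraspeckle protein genes Nono, Sfpq, Pspc1 and Rbm14 were not called in any of the 9 comparisons. Nono, which binds RNA as a dimer with the related protein Sfpq, had a signal of 159 ± 19.5 in GF lung, 145 ± 9.96 in SPF lung, 157 ± 29.0 in GF spleen and 130 ± 29.2 in SPF spleen (SD, n = 3 each). It stood at 129 ± 2.24 in GF blood and 142 ± 1.31 in SPF blood (SD, n = 2 each). In SPF lung, where Neat1 was highest, the log2 difference of Nono from SPF spleen was 0.18 ± 0.24 (SE, adjusted p = 0.752). The means of Sfpq ran between 5.92 in SPF spleen and 16 in SPF lung, and those of Pspc1, the third protein of that family, between 7.55 in GF spleen and 15.1 in GF lung. Rbm14, an RNA-binding protein needed for intact paraspeckles, had means of 8.12 to 25.7. At such levels, a few reads per shallow library, changes of moderate size were not detectable.

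**Figure D3:**
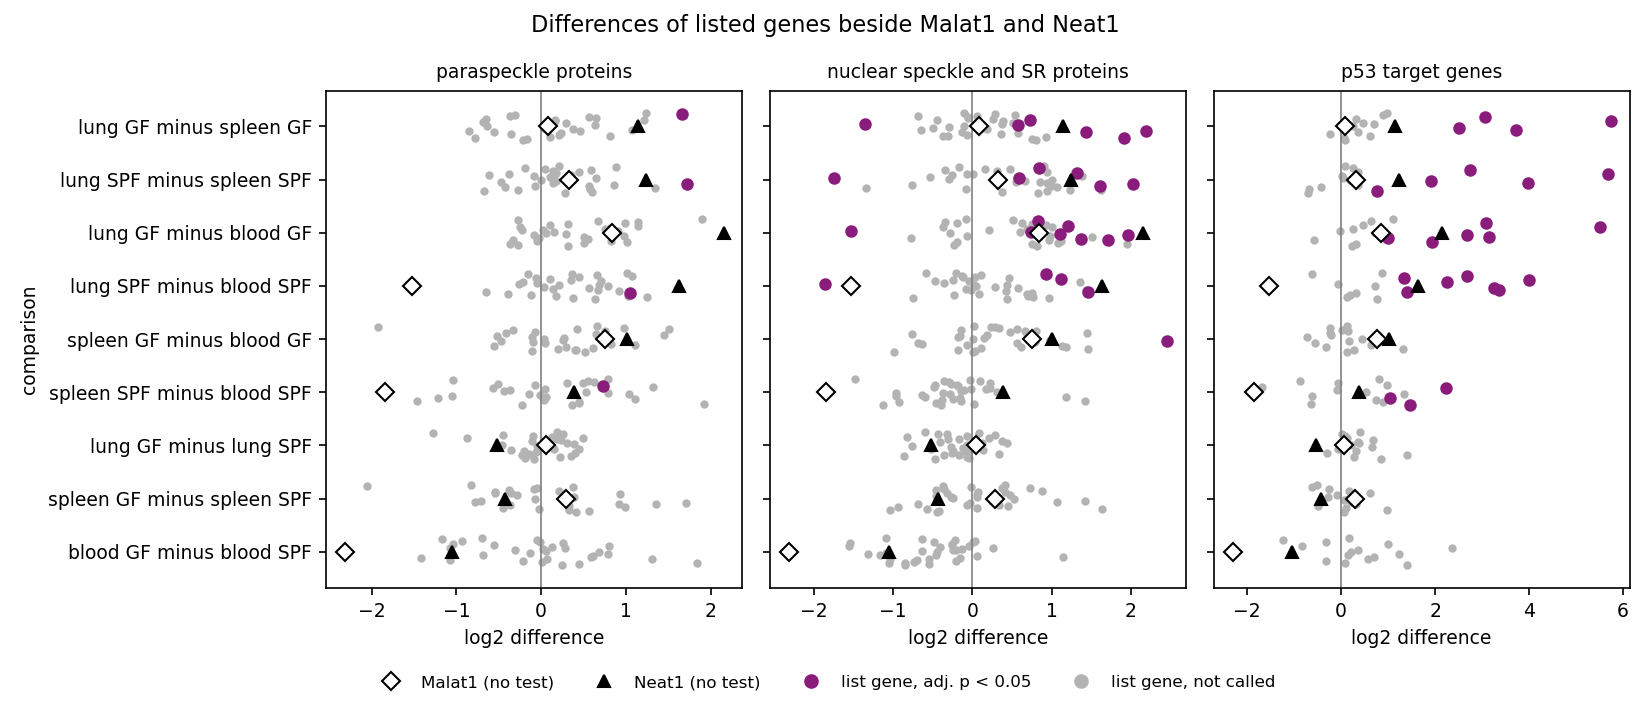
Log2 differences of paraspeckle proteins (left), nuclear speckle and SR proteins (middle) and p53 target genes (right) in the 9 comparisons, with purple points for an adjusted p under 0.05 and grey for the rest; Malat1 (open diamond) and Neat1 (triangle) are drawn without a test. In the comparisons of lung with spleen or blood, called p53 target genes lie at up to 5.74, while Malat1 lies at -1.52 in SPF lung minus SPF blood.

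Nuclear speckles are the sites where Malat1 RNA gathers. Of 34 genes of their proteins tested, 5 were called higher and 1 lower in GF lung than in GF spleen, where the background was 8.03% and 2.14%. The counts were the same, 5 higher and 1 lower, for SPF lung against SPF spleen (background 7.68% and 1.99%). GF lung had 7 higher and 1 lower than GF blood (background 7.83% and 1.96%), and SPF lung 3 higher and 1 lower than SPF blood (background 12.5% and 6.63%). In SPF lung against SPF blood, 3 of 34 is below the background of 12.5%, and the list median of 0.10 is below the 0.16 over all genes.

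Srsf5, a splicing factor of the SR family, showed the clearest pattern of this list. Its signal was 452, 444 and 475 in GF lung, and 587, 554 and 488 in SPF lung. Spleen libraries had 180, 154 and 171 for GF mice and 187, 185 and 157 for SPF mice, and blood libraries 185 and 167 for GF mice and 210 and 184 for SPF mice. Every lung library exceeded every spleen and blood library. The difference was 1.44 ± 0.20 for GF lung minus GF spleen (SE, adjusted p = 4.43e-06) and 1.62 ± 0.20 for SPF lung minus SPF spleen (adjusted p = 6.3e-07). Against blood it was 1.37 ± 0.23 in GF mice (adjusted p = 5.33e-05) and 1.46 ± 0.23 in SPF mice (adjusted p = 1.93e-05). Ddx5, an RNA helicase with roles in splicing, was likewise called higher in all 4 lung comparisons, at 1036 ± 140 in GF lung against 620 ± 33.5 in GF spleen, and at 1157 ± 36.1 in SPF lung against 466 ± 57.3 in SPF spleen (SD, n = 3 each). The first of these Ddx5 calls was lost without GF lung replicate 3.

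Rsrp1, which codes for an arginine- and serine-rich protein, was the member called lower in the 4 lung comparisons. It had 367 ± 37.4 in GF lung against 941 ± 90.5 in GF spleen (SD, n = 3 each), a difference of -1.36 ± 0.33 (SE, adjusted p = 0.0136) that was lost without any one of 4 libraries. SPF lung had 338 ± 47.6 against 1235 ± 581 in SPF spleen (SD, n = 3 each), a difference of -1.75 ± 0.33 (SE, adjusted p = 0.00186). Srsf3, another SR protein, was higher in GF lung than GF spleen by 2.19 ± 0.59 (adjusted p = 0.0239) and in SPF lung than SPF spleen by 2.03 ± 0.59 (adjusted p = 0.0378), and Clk1, a kinase of SR proteins, was higher in SPF lung than in SPF blood by 0.93 ± 0.24 (adjusted p = 0.00597). The Srsf3 calls were lost without any one of the 3 GF lung libraries in GF mice and without any one of 9 libraries in SPF mice, and the Clk1 call without either SPF blood library.

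Son and Srrm2, scaffold proteins of the speckle core, and Srsf2 were described whatever their result. Srrm2 was called in 1 comparison, with 142 ± 14.7 in GF lung (SD, n = 3) against 67.6 ± 27.6 in GF blood (SD, n = 2), a difference of 1.11 ± 0.32 (SE, adjusted p = 0.0204) that was lost without GF lung replicate 3 or 4 or GF blood replicate 3. Between GF and SPF blood, where Malat1 differed most, Srrm2 had -1.09 ± 0.35 (adjusted p = 0.103) and Son -0.64 ± 0.32 (adjusted p = 0.321). Srsf2 had means of 8.26 to 15.4 and was not called in any comparison. For GF against SPF blood, limma called 0 of the 34 genes (background 0.795% higher and 0.53% lower). The list median was -0.47 against 0.02 over all genes, and 5 of the 34 had an unadjusted p under 0.05, against 1367 of all 8299. Likewise limma called 0 of 34 for GF against SPF lung, GF against SPF spleen and SPF spleen against SPF blood. There 0, 3 and 3 had an unadjusted p under 0.05 in that order, against 332, 1032 and 1938 of all 8299 genes. The shares of all genes called in either direction were 0.0241%, 0.325% and 7.06%. The 1 gene of 34 called between GF spleen and GF blood (background 0.47% called higher) was Srsf1, another SR splicing factor. It was higher by 2.46 ± 0.52 (adjusted p = 0.0107), a call lost without GF spleen replicate 4 or GF blood replicate 3.

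Genes that make or bind the triple-helix ends were near the lower limit of measurement. Of 15 listed, 10 were in the table and 8 tested. Elac2, the enzyme that trims the 3′ end of tRNA-like products in human cells, had means of 2.29 to 8.56, and Mettl16, a methyltransferase known from human cells to bind the Malat1 triple helix, had means of 1.90 to 7.28. Neither was called in any comparison. Rpp14, a subunit of RNase P, was the only call, higher in SPF lung at 17.3 ± 5.85 (SD, n = 3) than in SPF blood at 3.15 ± 4.17 (SD, n = 2), with a difference of 2.60 ± 0.74 (SE, adjusted p = 0.0124). This call is 1 of 8 genes tested, against 12.5% of all genes called higher in SPF lung than in SPF blood. The Rpp14 call was lost without SPF lung replicate 2 or SPF blood replicate 4. In the other 8 comparisons limma called 0 of the 8 genes, with at most 1 at an unadjusted p under 0.05. Over all 8299 genes the share called there in either direction was 0.0241% to 10.2%, and 332 to 1938 had such a p.

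Neat1 is itself a known transcriptional target of p53, the stress-activated tumour suppressor, so other p53 targets were set beside it. Of 22 listed, 15 were tested. In GF lung, 4 were called higher than in GF spleen (background 8.03%) and 6 higher than in GF blood (background 7.83%). In SPF lung, 5 were higher than in SPF spleen (background 7.68%) and 7 higher than in SPF blood (background 12.5%). None was called lower in these 4 comparisons. The same 4 genes, Cdkn1a, Phlda3, Btg2 and Plk2, were called in each of them, though Phlda3 in GF lung was not called against either tissue without GF lung replicate 4. These lists were set with earlier results of the same libraries known, so the direction is not independent evidence.

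Btg2, an antiproliferative gene that also responds to many growth and stress signals, had the highest signal of them. It stood at 6333, 7059 and 6490 in GF lung, against 596, 744 and 1108 in GF spleen and 932 and 656 in GF blood. In SPF mice it stood at 7213, 7106 and 4820 in lung, against 614, 1154 and 1178 in spleen and 1035 and 931 in blood. The differences from spleen were 3.07 ± 0.24 in GF mice (SE, adjusted p = 2.72e-09) and 2.74 ± 0.24 in SPF mice (adjusted p = 1.77e-08). Cdkn1a, the cell cycle inhibitor p21, was near absent outside the lung, with 258 ± 86.4 in GF lung against 3.90 ± 1.98 in GF spleen, and 156 ± 25.1 in SPF lung against 2.30 ± 1.53 in SPF spleen (SD, n = 3 each). Plk2, a kinase induced by stress and by cell stimulation, had 471 ± 27.4 in GF lung against 42.4 ± 27.5 in GF spleen, and 499 ± 129 in SPF lung against 34.1 ± 21.5 in SPF spleen (SD, n = 3 each). Cdkn1a, Btg2 and Plk2 are also known to be induced independently of p53.

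Outside the lung, 3 of the 15 p53 targets were higher in SPF spleen than in SPF blood (background 3.05%): Pmaip1 and Trp53inp1, which promote cell death, and Ei24, an endoplasmic reticulum protein. All 3 calls were lost without the libraries under 250000 reads. Between GF and SPF mice limma called 0 of the 15 in lung, spleen and blood, and 0 between GF spleen and GF blood. In that order, 2, 1, 5 and 3 of the 15 had an unadjusted p under 0.05. Over all 8299 genes the numbers were 332, 1032, 1367 and 1001, and the shares called in either direction 0.0241%, 0.325%, 1.33% and 0.88%. Lung structural markers moved with these lung differences, and their part was not tested.

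Transcripts encoded by the mitochondrial genome were also higher in lung. Of 13 genes, 12 were higher in GF lung than GF spleen (background 8.03%), 11 in SPF lung than SPF spleen (7.68%), 13 in GF lung than GF blood (7.83%) and 11 in SPF lung than SPF blood (12.5%). Their summed signal was 8541 ± 3667 in GF lung and 5091 ± 1195 in SPF lung (SD, n = 3 each), so the order of the lung groups was opposite to that of Neat1. In GF spleen 5 of the 13 were higher than in GF blood (background 0.47%), and in SPF spleen 2 were higher than in SPF blood (background 3.05%). Between GF and SPF mice limma called 0 of the 13 in lung, spleen and blood. In that order, 5, 2 and 5 had an unadjusted p under 0.05, against 332, 1032 and 1367 of all 8299 genes. The shares of all genes called in either direction were 0.0241%, 0.325% and 1.33%.

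Of 40 other named long noncoding RNAs, 11 were in the table and 7 of these passed the limit on low values and were tested. Mir22hg, the host transcript of a microRNA, was higher in GF lung at 108 ± 20.8 than in GF spleen at 53.8 ± 16.6 (SD, n = 3 each; 1.02 ± 0.30 log2, SE, adjusted p = 0.0233), and higher in SPF lung at 169 ± 21 than in SPF spleen at 62.8 ± 18.1 (1.45 ± 0.30, adjusted p = 0.000869). Dleu2, another host of microRNAs, was lower in GF lung than GF blood by 0.97 log2 units (log2 difference -0.97 ± 0.28, adjusted p = 0.0247) and lower in SPF lung than SPF blood (-1.18 ± 0.28, adjusted p = 0.00295). The Mir22hg and Dleu2 calls in GF mice were each lost without any one of 3 libraries, and the Dleu2 call in SPF mice without SPF blood replicate 3. Gas5, a host of small nucleolar RNAs, was higher in SPF lung than SPF spleen by 1.56 ± 0.49 (adjusted p = 0.04), a call lost without any one of 9 libraries, and Peg13, an imprinted RNA, was higher in SPF lung than SPF blood by 2.20 ± 0.60 (adjusted p = 0.00859), lost without SPF blood replicate 3. Of the 7, 1 was called higher in GF lung than GF spleen (background 8.03%) and 2 in SPF lung than SPF spleen (7.68%). Against blood, 1 was called lower in GF lung (1.96%), and 1 higher and 1 lower in SPF lung (12.5% and 6.63%). In the remaining 5 comparisons limma called 0 of the 7, with 0 to 3 at an unadjusted p under 0.05. Among all 8299 genes the share called there in either direction was 0.0241% to 7.06%, and 332 to 1938 had such a p.

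Over all annotated long noncoding RNA genes apart from Malat1 and Neat1, a class added after the data were seen, 197 of 433 were tested. In GF lung 5 were higher and 15 lower than in GF spleen (background 8.03% and 2.14%), with a list median of -0.29 against 0.11 over all genes. SPF lung had 7 higher and 7 lower than SPF spleen (background 7.68% and 1.99%), with a median of -0.30 against 0.06. GF lung had 6 higher and 11 lower than GF blood (background 7.83% and 1.96%), with a median of -0.47 against 0.15. SPF lung had 9 higher and 23 lower than SPF blood (background 12.5% and 6.63%), with a median of -0.53 against 0.16. SPF spleen had 1 higher and 3 lower than SPF blood (background 3.05% and 4.01%). GF blood had 0 higher and 3 lower than SPF blood (background 0.795% and 0.53%), with a median of -0.15 against 0.02. In either direction, 17 of the 197 had an unadjusted p under 0.05 there, against 1367 of all 8299 genes. In GF lung minus GF spleen, Neat1 had 1.14 and Malat1 0.09, and in GF minus SPF blood Neat1 had -1.05 and Malat1 -2.31. Both were chosen with their levels known, so their distance from a class median is only a description.

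Genes near Malat1 and Neat1 were also compared, and whether they moved as a block was not tested. Within 500 kb of Malat1 or Neat1, the annotation holds 99 other genes, of which 45 were in the table and, without Gm37376, 38 were tested. In GF against SPF blood, 2 of the 38 were called lower (background 0.53%) and 0 higher (background 0.795%). Of the 38, 6 had an unadjusted p under 0.05, against 1367 of all 8299 genes. The list median was 0.08 against 0.02 over all genes. Cfl1 (chr19:5490455-5495201, plus strand), the gene of cofilin, an actin-severing protein, had 729 and 344 in GF blood, against 1528 and 1372 in SPF blood. The difference was -1.53 ± 0.27 (SE, adjusted p = 0.00276), and it was lost without GF blood replicate 3 or SPF blood replicate 3. Cdc42ep2 (chr19:5915636-5924816, minus strand), an effector of the small GTPase Cdc42, had 35.3 and 48.2 in GF blood, against 142 and 98.6 in SPF blood (-1.50 ± 0.38, adjusted p = 0.0412), a call lost without any one of 10 libraries.

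Cfl1 was also lower in SPF spleen, at 558 ± 86.8 (SD, n = 3), than in SPF blood, at 1450 ± 110 (SD, n = 2), by a log2 difference of -1.39 ± 0.24 (SE, adjusted p = 0.000754). Cfl1 was the 1 neighbour of 38 called in this comparison (background 4.01% called lower), and the call was lost without SPF blood replicate 3. In GF mice Cfl1 stood at 774 ± 128 in spleen (SD, n = 3) against 536 ± 272 in blood (SD, n = 2), which was not called. The signed spleen minus blood difference of GF mice minus that of SPF mice was 2.0 ± 0.34 (SE, limma interaction, adjusted p = 0.00506). In this interaction 0.759% of all genes were called in either direction, and it was not refitted with libraries left out. In SPF lung 2 of the 38 neighbours were called higher than in SPF spleen (background 7.68%). They were Cfl1, by 0.77 ± 0.22 (adjusted p = 0.0196), and Ehd1, an endocytic recycling protein, by 0.72 ± 0.20 (adjusted p = 0.0184). Each of these calls was lost without any one of 4 libraries.

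In SPF lung against SPF blood, where Malat1 was lower and Neat1 higher, 4 of the 38 neighbours were called higher (background 12.5%) and none lower. They were Map3k11 and Map4k2, kinases of stress signalling, Sipa1, a regulator of the small GTPase Rap1, and Syvn1, a ubiquitin ligase of the endoplasmic reticulum. Map3k11 had 132 ± 9.15 in SPF lung (SD, n = 3) against 47.0 ± 17.6 in SPF blood (SD, n = 2), a difference of 1.52 ± 0.39 (SE, adjusted p = 0.00595). Map4k2 had 269 ± 22 in SPF lung (SD, n = 3) against 145 ± 48.7 in SPF blood (SD, n = 2), a difference of 0.92 ± 0.25 (adjusted p = 0.00799). All 4 calls were lost without SPF blood replicate 3. Ap5b1, an adaptor protein subunit, was the 1 neighbour of 38 called between GF lung and GF spleen (background 2.14% called lower). It was lower in GF lung, with a log2 difference of -1.30 ± 0.41 (adjusted p = 0.0404), a call lost without any one of 9 libraries. For GF lung and GF spleen against GF blood and for GF against SPF lung and spleen, limma called 0 of the 38. Of all genes, 9.8%, 0.88%, 0.0241% and 0.325% were called there in either direction, in that order. Neighbours at an unadjusted p under 0.05 numbered 5, 3, 1 and 4, against 1817, 1001, 332 and 1032 of all 8299 genes.

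**Figure D4:**
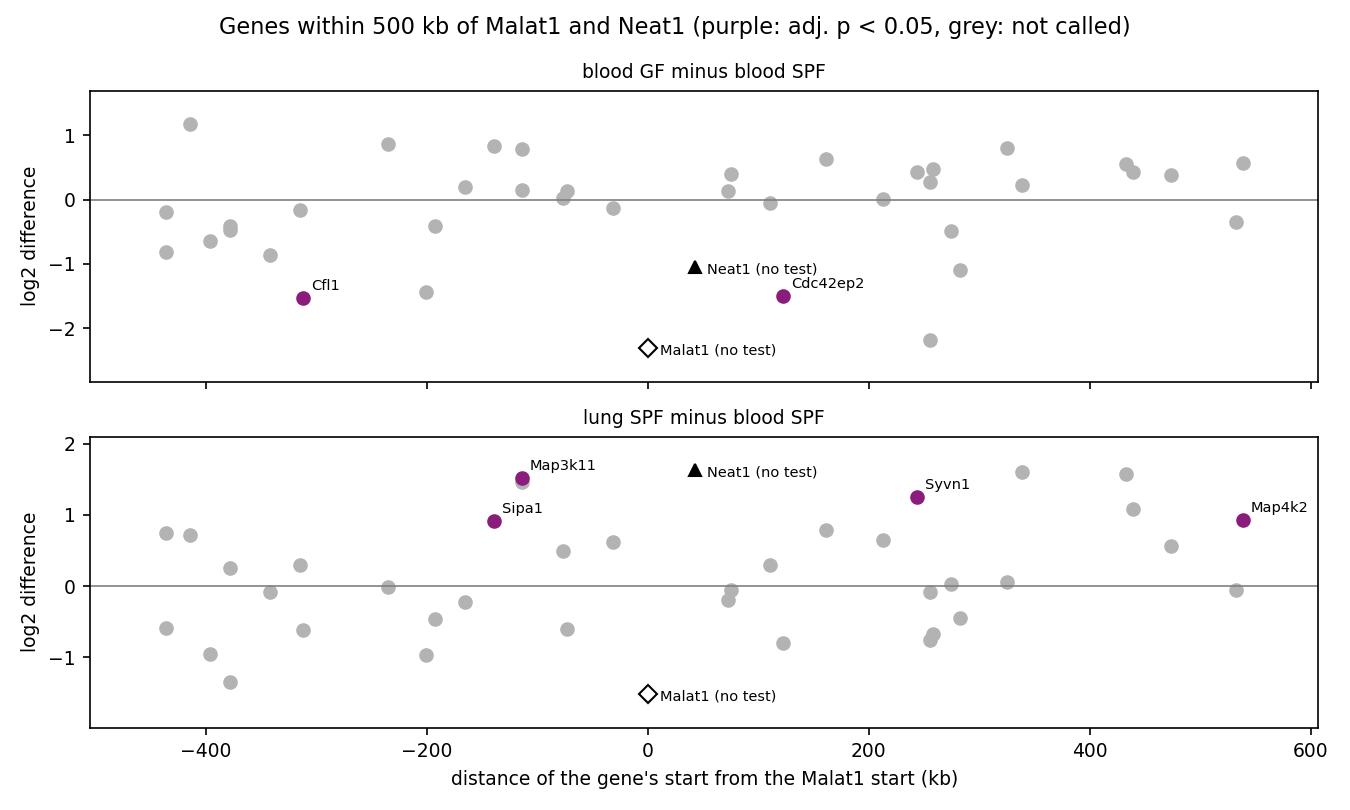
Log2 differences of the tested genes within 500 kb of Malat1 and Neat1 against the distance of their start from the Malat1 start (kb), for GF minus SPF blood (top) and SPF lung minus SPF blood (bottom); purple points passed an adjusted p under 0.05 and grey points did not, and Malat1 and Neat1 are drawn without a test. In the top panel only Cfl1 and Cdc42ep2 are called, near -1.5, and in the bottom panel 4 neighbours are called higher, at 0.91 to 1.52.

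Malat1 and Neat1 did not follow each other across the libraries. Their log2 levels had a Pearson r of 0.12 over the 16 libraries, and of -0.03 once group means were taken out. The points share library scaling and depth, and the first value also carries the differences between the 6 groups, so these values are descriptions.

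Likeness was measured against 1400 of the genes with a mean of at least 100, leaving out pseudogenes and genes without a proper name, such as predicted models. The level closest to that of Malat1 belonged to Sin3b, a corepressor scaffold (r = 0.90 over 16 libraries). Sin3b had 125 ± 35.9 in GF blood against 323 ± 29.0 in SPF blood (SD, n = 2 each), and 137 to 164 as group means elsewhere. Gng5, a G protein subunit, Wbp2, Gabarapl2, an autophagy protein, and Atp6v1e1, a subunit of the vacuolar proton pump, followed at r = 0.82 to 0.84. Each of these 5 genes also had its highest group mean in SPF blood. They were picked for likeness to Malat1 over the same libraries, so this shared peak is no separate observation. By deviations from group means, the closest were Atp6v0c, another proton pump subunit (r = 0.92), Tmem50a, Srgn, the proteoglycan serglycin of granules, Tmem59 and Bin3.

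Neat1 was closest to Chd7, a chromatin remodeller (r = 0.94 over 16 libraries), and to Cass4, an adhesion scaffold (r = 0.92). Chd7 had 232 ± 5.27 in GF lung and 307 ± 32.6 in SPF lung, against 80.6 ± 16.2 in GF spleen and 92.5 ± 12.9 in SPF spleen (SD, n = 3 each). Cass4 had 377 ± 121 in GF lung and 669 ± 84.8 in SPF lung, against 106 ± 16.5 in GF spleen and 107 ± 43.8 in SPF spleen (SD, n = 3 each). Both were highest in SPF lung, as Neat1 was, which their choice by likeness to Neat1 over the same libraries favours. The RNA helicase gene Ddx3x (r = 0.89) and the mitochondrial genes mt-Nd1 and mt-Co3 came next. With group means removed, the closest were Atp2a3, a calcium pump (r = 0.93), Dhx40, Ogdh, Rara and Cap1, none of which was among the first 5.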

How the data were processed

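RNA of sorted neutrophils was amplified to cDNA and sequenced as paired reads, per the labels' protocols. The submitters' processing notes name CASAVA, RSEM 1.3.1, limma and mm10; gene filters and scaling are not given in the sources used here. The authors deposited 1 table of a linear signal for 10296 genes and 16 libraries. Its low values step as an RSEM expected count plus 0.5, scaled to an effective library of 1000000 reads, and reads were recovered by inverting this; 91.4% to 98.7% of values under 10 reads lay within 0.05 of a whole read. No count model was used, because the rest were fractional. Shallow libraries (5 under 250000 reads) measure low genes poorly.

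Symbols and coordinates came from GENCODE M21 (10275 identifiers matched). The 8299 genes that reached a signal of 10 in 2 or more libraries were tested. Differences of log2(value + 1) were fitted in limma 3.58.1 (R 4.3.3) with 6 group means over all 16 libraries, a trended and robust prior, and two-sided Benjamini-Hochberg adjustment over all genes, with a threshold of 0.05. The pseudocount understates changes of low genes. The script was tested on simulated data. Malat1 and Neat1, the gene lists and the comparisons were chosen with earlier results of these data known. Named list genes were fixed core members and up to 4 called genes of smallest p per list, comparison and direction, with a mean of at least 10 in the higher group; all neighbours within 500 kb were eligible, and likeness used the 5 highest Pearson r. Not every eligible gene is printed. Settings tried besides the main one were a pseudocount of 5, no filter, quantile and median-ratio scaling, leaving out libraries, and a replicate block. Replicate numbers were not used as pairs, because the labels do not state that they mark an animal. Deviations of same-numbered libraries correlated at -0.13 to 0.07 over 9 pairs. That check cannot exclude shared mice, since few pairs exist and the 2 blood libraries of a group deviate as mirror images.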

Additional observations from a re-analysis of the deposited data

Results flagged for a closer look

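In GF mice Malat1 was higher in lung than in blood, and in SPF mice it was lower in lung than in blood, without overlap in either case. The GF difference minus the SPF difference was 2.36 on the log2 scale. The same held for spleen against blood, where the GF difference minus the SPF difference was 2.60. These differences were not tested, because Malat1 was chosen with its levels known, and both rest on the same 4 blood libraries.

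Cfl1, a neighbour of Malat1, averaged 774 in spleen against 536 in blood in GF mice, and 558 in spleen against 1450 in blood in SPF mice. The signed spleen minus blood difference of GF mice minus that of SPF mice was 2.0 log2 units in the limma interaction (adjusted p = 0.00506). It rests on 2 blood libraries of each kind of mice and was not refitted with libraries left out. The Cfl1 call of SPF spleen against SPF blood was lost without SPF blood replicate 3.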

How the results depend on the processing

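With a pseudocount of 5, quantile normalization, median-ratio rescaling or libraries left out, no difference of Malat1 or Neat1 with non-overlapping groups changed sign. Quantile normalization moved Malat1 to -1.81 in GF minus SPF blood, -0.91 in SPF lung minus SPF blood and -1.03 in SPF spleen minus SPF blood. Without the 5 libraries under 250000 reads, Malat1 was 0.45 in GF spleen minus GF blood, and Neat1 was -0.63 in GF minus SPF blood and 1.74 in GF lung minus GF blood. Leaving out 1 library at a time gave Neat1 differences of -1.46 (without GF blood replicate 2) to -0.63 (without replicate 3) in GF minus SPF blood, 1.74 to 2.57 in GF lung minus GF blood and 0.60 to 1.43 in GF spleen minus GF blood. The Malat1 difference was -2.58 to -2.04 in GF minus SPF blood, but crossed 0 in GF minus SPF lung (-0.04 to 0.24) and GF lung minus GF spleen (-0.01 to 0.28), where the groups overlap.

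The number of genes called depended on single libraries. It was 110 in GF minus SPF blood, and 2 to 351 without 1 library (2 and 30 without SPF blood replicate 3 and 4, 280 and 7 without GF blood replicate 2 and 3, 72 without GF lung replicate 3, 203 without GF spleen replicate 1, 351 without SPF spleen replicate 1). In GF minus SPF lung it was 2, and 0 to 5 (0 without any GF lung library or SPF lung replicate 1 or 3, 5 without SPF lung replicate 2, 1 without GF spleen replicate 1). In GF minus SPF spleen it was 27, and 10 (without GF spleen replicate 4) to 219 (without SPF spleen replicate 1), with 43 without GF spleen replicate 1 and 15 and 55 without SPF spleen replicate 2 and 4. GF lung against GF blood gave 813, and 524 (without GF lung replicate 4) to 1023. GF lung against GF spleen gave 844, and 556 (without GF lung replicate 4) to 1011. SPF lung against SPF blood gave 1585, and 706 and 975 (without SPF blood replicate 3 and 4) to 1859. GF spleen against GF blood gave 73, and 28 (without GF blood replicate 3) to 163 (without replicate 2), with 151 without SPF spleen replicate 1. SPF spleen against SPF blood gave 586, and 39 and 284 (without SPF blood replicate 3 and 4) to 733. Without all libraries under 250000 reads the counts were 179, 1, 59, 2588, 111 and 368 for GF minus SPF blood, lung and spleen, SPF lung against SPF blood, GF spleen against GF blood and SPF spleen against SPF blood; quantile normalization gave 335 for the last. The cause was not tested. Of 82 named calls of list genes, 40 held under every alternative run, 42 were lost without some 1 library and 27 under another alternative.

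Scaling moved the balance of calls. Of the genes called in GF lung against GF spleen 78.9% were higher, and 64.6% after quantile and 67.5% after median-ratio scaling. For SPF lung against SPF spleen the shares were 79.4%, 65.5% and 70.8%, for GF lung against GF blood 80%, 71% and 64%, for SPF lung against SPF blood 65.3%, 58.9% and 52.9%, and for SPF spleen against SPF blood 43.2%, 57.6% and 36.1%. The median of all genes in SPF lung minus SPF blood was 0.16 as deposited and -0.10 after quantile normalization. A replicate block by number gave 117, 2 and 22 calls for GF minus SPF blood, lung and spleen and moved no count by over 1.5 times, and deviations of same-numbered libraries correlated at -0.13 to 0.07 over 9 pairs.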
